A study of Drosophila melanogaster with 2 samples.

Results

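The regions described here are the intronic binding peaks of Dorsal (dl) that lay far from transcription start sites in whole Drosophila melanogaster larvae. A peak was counted when its summit lay inside an annotated gene, in no exon of any transcript and more than 500 bp from every annotated start site. The annotation was Ensembl release 115 (BDGP 6.54), without pseudogenes and transposable elements. By this rule 803 of the 2690 thresholded peaks on the chromosome arms were intronic, which is 29.9% (exact 95% interval 28.1 to 31.6), and the list held 2718 peaks with unplaced sequences included. They were 5.97% of the intronic candidates in the pooled list, where 8.98% of all candidates on the arms passed. Another 1491 peaks had start sites at 500 bp or less from the summit and are called promoter peaks, 279 were intergenic and 117 lay in exons. A further 546 summits inside a gene and outside every exon lay within 500 bp of a start site and so were counted among the promoter peaks.

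The measurement was chromatin immunoprecipitation followed by sequencing (ChIP-seq) on mixed-sex larvae of the dl-small-GFP strain in the wandering phase of the third instar, just before pupariation. The strain stably expresses the dl-RC isoform with GFP fused to its C terminus, and the labels describe an immunoprecipitation with anti-GFP antibody, although the antibody field reads dl. A single group of 2 biological replicates, with numbers 1 and 3, was sonicated to 200 to 275 bp and to 175 to 275 bp, and there was no second condition. Larvae were used whole, so binding in many cells and stronger binding in few cells cannot be told apart, and no tissue can be assigned to a peak. The thresholded list, named optimal by the authors, was made from both replicates by the irreproducible discovery rate (IDR). IDR measures how well the ranks of 2 lists agree. A peak of the thresholded list did not have to rank high in the list of each single replicate, and this agreement is given further below. Each peak carries the authors' signal value, an enrichment over control that has no absolute unit and is used here only within a list. Read depth is unknown because the files hold regions and not reads, and all intervals given here cover the counting of regions or genes.

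Dorsal is an NF-kB family transcription factor that Toll signalling releases into the nucleus. In the early embryo it patterns the dorsoventral axis, and in the larva it belongs to the Toll pathway of immune and fat body cells. Introns of developmental genes often hold enhancers, and the first intron is a common place for them. The GAGA factor, encoded by Trl, binds GA repeats, keeps regulatory DNA open and is found at many promoters and enhancers of the fly.

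The 6 intronic peaks of highest signal, leaving out 1 arm not shown here, are given first because GA or CT runs, written in capitals, stand in the window of each. Each line is the 201 bp around the summit on the plus strand of dm6, from the RefSeq release 6 assembly, and capitals mark every match to GAGAGAG on either strand.
B4, chr2L:13513410-13513610: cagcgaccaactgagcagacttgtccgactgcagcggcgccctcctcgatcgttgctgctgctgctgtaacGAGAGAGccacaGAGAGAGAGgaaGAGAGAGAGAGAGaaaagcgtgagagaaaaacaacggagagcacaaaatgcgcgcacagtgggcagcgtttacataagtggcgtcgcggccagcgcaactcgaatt
Eip74EF, chr3L:17590765-17590965: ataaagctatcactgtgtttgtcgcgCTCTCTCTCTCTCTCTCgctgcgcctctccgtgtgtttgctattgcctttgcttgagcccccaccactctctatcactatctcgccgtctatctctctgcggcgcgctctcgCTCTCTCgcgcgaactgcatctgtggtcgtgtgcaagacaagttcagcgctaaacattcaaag
MYPT-75D, chr3L:18640755-18640955: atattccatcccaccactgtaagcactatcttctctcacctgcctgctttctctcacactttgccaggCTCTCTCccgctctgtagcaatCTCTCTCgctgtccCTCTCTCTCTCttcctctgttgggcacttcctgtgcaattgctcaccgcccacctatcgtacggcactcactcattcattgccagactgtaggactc
CG42507, chr3L:14756442-14756642: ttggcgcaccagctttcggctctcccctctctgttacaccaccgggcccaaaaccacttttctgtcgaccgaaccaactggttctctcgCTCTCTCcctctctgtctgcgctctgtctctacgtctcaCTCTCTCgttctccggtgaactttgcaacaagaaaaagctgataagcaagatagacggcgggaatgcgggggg
Unc-76, chrX:2083743-2083943: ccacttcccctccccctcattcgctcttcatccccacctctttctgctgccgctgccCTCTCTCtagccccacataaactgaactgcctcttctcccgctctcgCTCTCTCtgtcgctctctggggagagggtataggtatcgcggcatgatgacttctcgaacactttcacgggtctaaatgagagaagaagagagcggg
Raf, chrX:2317573-2317773: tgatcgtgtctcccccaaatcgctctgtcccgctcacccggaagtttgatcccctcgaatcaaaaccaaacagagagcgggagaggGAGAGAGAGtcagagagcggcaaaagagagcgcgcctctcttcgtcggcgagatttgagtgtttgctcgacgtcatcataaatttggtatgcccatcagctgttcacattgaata

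The second set shows the 3 intronic peaks of highest signal, on the same arms, that hold a match to the dl motif, the NF-kB site that Dorsal itself binds. Here capitals mark that match, and the strand and assembly are as above.
Eip75B, chr3L:18022800-18023000: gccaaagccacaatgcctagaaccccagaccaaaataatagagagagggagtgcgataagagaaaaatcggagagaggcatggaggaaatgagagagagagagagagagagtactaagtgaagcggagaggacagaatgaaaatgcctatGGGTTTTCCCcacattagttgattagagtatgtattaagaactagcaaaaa
B4, chr2L:13509880-13510080: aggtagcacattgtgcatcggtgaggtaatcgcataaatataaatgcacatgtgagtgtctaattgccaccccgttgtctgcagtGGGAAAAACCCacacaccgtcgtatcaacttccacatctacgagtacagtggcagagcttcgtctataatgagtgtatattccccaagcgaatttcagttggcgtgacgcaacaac
CG9674, chr3L:16803805-16804005: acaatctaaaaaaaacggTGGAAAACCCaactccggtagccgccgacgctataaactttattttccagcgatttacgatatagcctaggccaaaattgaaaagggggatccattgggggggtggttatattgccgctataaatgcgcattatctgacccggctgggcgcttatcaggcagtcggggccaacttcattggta

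The strongest intronic peak lay in intron 3 of B4 (FBgn0023407) at chr2L:13513410-13513593 and had a signal of 889.2. Its summit was 14331 bp from CG33640, the gene with the nearest start site, and its window held 7 matches to GAGAGAG. The single replicate lists gave the same region a signal of 507.3 in list A and 364.6 in list B. The names list A and list B are used because nothing in the sources links these lists to replicate numbers 1 and 3.

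The second was in intron 5 of Eip74EF (FBgn0000567), an ETS transcription factor of the early ecdysone response, at chr3L:17590723-17590991. Its signal was 814.4, with 456.4 in list A and 345.1 in list B, and its summit lay 14239 bp from a start site of the gene. The third, in intron 2 of MYPT-75D, a targeting subunit of myosin phosphatase, had a signal of 780.2 and lay 536 bp from a start site. The fourth, in intron 3 of mam, had a signal of 762.7 and lay 3826 bp from a start site. The product of mam, Mastermind, is the coactivator of nuclear Notch. Each of these regions was high in both single lists, and 20 of the 20 intronic peaks of highest signal were among the best regions of both.

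The fifth lay in CG42507, with a signal of 726.5, and its nearest start site, 794 bp away, belonged to Trl, the gene of the GAGA factor. The summit also lay within the span of Trl, which held 4 intronic peaks (726.5, 255.1, 236.2 and 124.7). Those of 726.5 and 236.2 were counted for CG42507, the shorter of the 2 overlapping genes. After these came Unc-76 with 697.9, an adaptor of axonal transport, and Raf with 616.2, a kinase of the receptor tyrosine kinase cascade. Next were cora with 580.2, a septate junction component, Bacc with 577.6, and 14-3-3epsilon with 554.3, a phosphoprotein-binding adaptor. The other 10 ran from 544.6 in mub down to 462.2 in Tlk. They lay in mub, which encodes an RNA-binding protein, in osa, a subunit of the Brahma remodelling complex, and in Prps, an enzyme of nucleotide synthesis. Eip74EF held 2 of them (503.0 and 494.9), and jim, Rho1, CG11883, CHES-1-like and Tlk held 1 each. These 20 peaks were spread over distances of 536 to 14331 bp from a start site, with a median of 1642 bp. Of the 20, 10 were in second introns and 5 in first introns, and 19 held GAGAGAG, with cora the exception.

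The signal of the 803 intronic peaks ranged from 73.3 to 889.2, with a median of 113.6 and quartiles of 86.6 and 172.2. The lowest values were 73.66 in mdy, 73.44 in Ndae1, 73.39 in foxo, 73.34 in jing and 73.28 in simj. The highest signal among intronic candidates that did not pass the threshold was 73.23, so passing and failing candidates met closely and did not overlap. Passing among intronic candidates was thus the same as a signal above 73.23, and shares that passed are a reading of signal. Promoter peaks had a median of 126.9 and intergenic peaks one of 102.8. In a linear model of log2 signal on class, intronic peaks were lower than promoter peaks by a difference of -0.15 (95% interval -0.22 to -0.09, p = 4.53e-06, n = 2690). They were higher than intergenic peaks by 0.11 (0.02 to 0.20, p = 0.0211, n = 2690). Both differences were small beside the spread within a class, and the first was -0.06 (p = 0.133, n = 2556) with the signal of list B alone. The second missed the threshold with list A alone (0.09, p = 0.102, n = 2608) and among peaks at or above the median signal (0.05, p = 0.397, n = 1345). Intronic peaks made up 20 of the 100 strongest arm peaks and 133 of the 500 strongest.

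**Figure D1:**
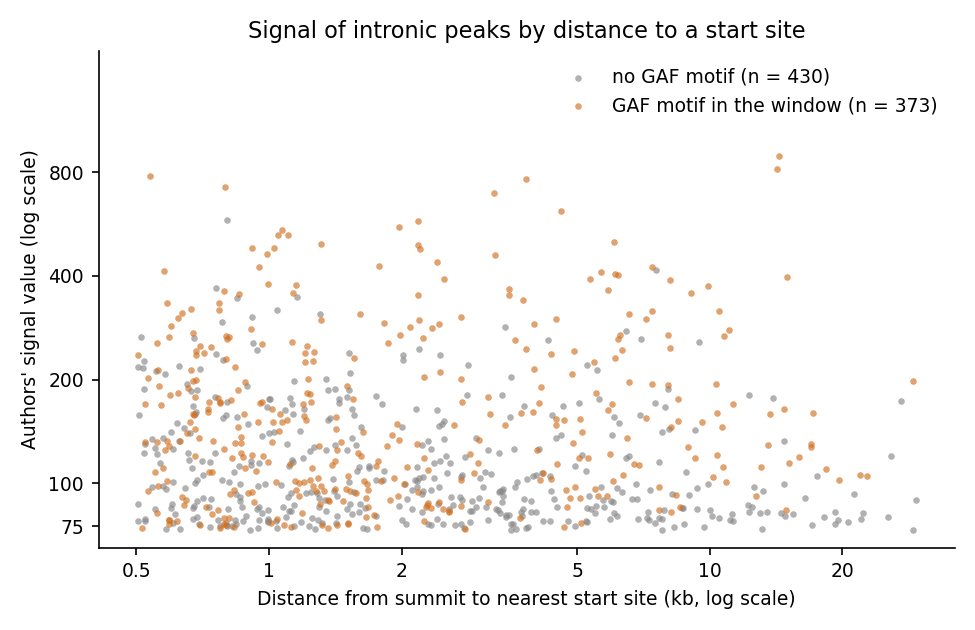
Signal of each of the 803 intronic peaks (vertical axis, log scale, authors' value) against the distance from its summit to the nearest start site (horizontal axis, kb, log scale). Orange points hold the GAGA factor (GAF) motif within 100 bp of the summit and grey points do not. Values over 400 occur from 536 to 14331 bp, and 28 of these 30 points are orange, with overall medians of 144.0 for orange and 97.5 for grey points.

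Intronic candidates passed the threshold at a rate of 5.97% (803 of 13448), compared with 8.98% of all 29970 pooled candidates on the arms. The rate was 20.3% for promoter candidates, 4.63% for intergenic and 3.70% for exonic ones. The summits of intronic peaks lay a median of 1762 bp from the nearest start site, with quartiles of 913 and 4492 bp. The corresponding median was 3673 bp for intronic candidates that did not pass and 5818 bp for all eligible intronic sequence, meaning every base that the rule would accept. The nearest start site belonged to the host gene for 580 peaks (72.2%, 69.0 to 75.3), and to another gene for the rest.

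The share that passed fell with each step away from a start site. It was 12.9% (11.4 to 14.6) between 500 and 1000 bp, 7.58% between 1000 and 2000 bp, 5.10% between 2000 and 5000 bp, 4.21% between 5000 and 10000 bp and 2.69% (2.09 to 3.40) beyond. Per megabase of eligible intron the same steps ran from 53.0 peaks to 3.67. So 233 of the 803 peaks came from the nearest step, which held 8.18% of the eligible sequence, and 67 from the farthest, which held 33.9%. The median signal, from the nearest step to the farthest, was 128.2, 112.2, 104.9, 118.6 and 100.6, so it did not fall at each step.

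**Figure D2:**
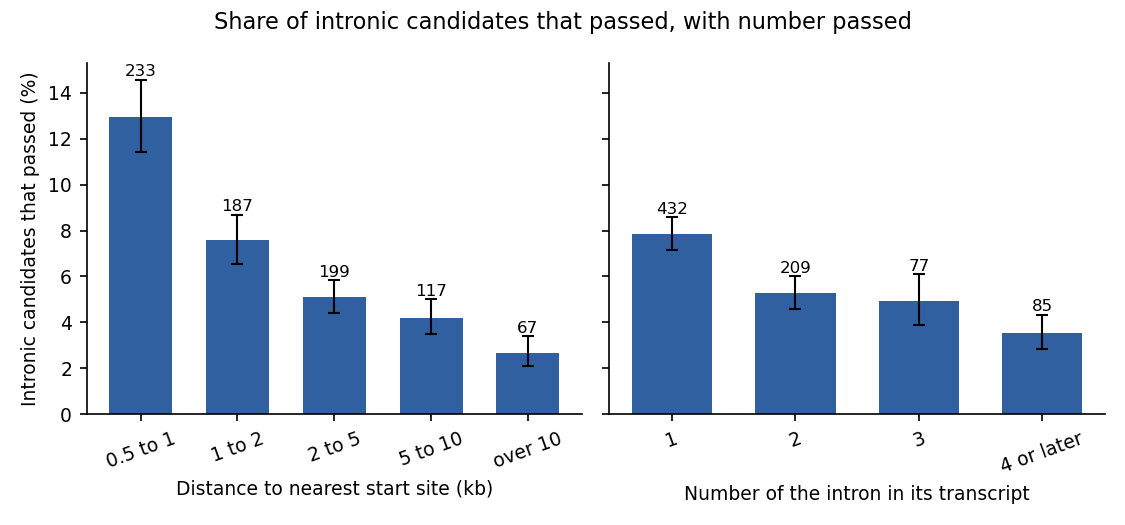
Percent of intronic candidates that passed the IDR threshold (vertical axis) by distance to the nearest start site in kb (left) and by the number of the intron in its transcript (right). Bars are shares, lines are exact 95% intervals and the numbers over the bars count the peaks that passed. The share falls from 12.9% to 2.69% with distance and from 7.85% in first introns to 3.52% in the fourth and later ones.

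Just beyond the limit of 500 bp were peaks in alt and ctrip (503 bp, signals 77.72 and 217.8), CG44774 (504 bp, 86.88), Akap200 (505 bp, 235.2) and CG31368 (508 bp, 157.7). Just inside it, and so left out, were peaks in CG5953 (499 bp, 146.9), orion, ec and CHES-1-like (498 bp, 260.3, 104.4 and 82.57) and unc-5 (497 bp, 190.2). Signals on the 2 sides of the limit covered much the same range. At the other end, the peaks farthest from any start site lay in jing and tai. Those of jing were 29367, 29005 and 25753 bp away, with signals of 89.75, 73.34 and 120.1. Those of tai, a coactivator of the ecdysone receptor, were 28956 and 27204 bp away, with signals of 198.4 and 173.5. The longest introns with a peak were intron 3 of Ptp61F, of 126467 bp, and intron 1 of jing, of 110416 bp, both with signals of 120.1 or less.

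First introns held 432 of the 803 peaks, or 53.8% (50.3 to 57.3), but 30.4% of the eligible sequence and 40.1% of the candidates that did not pass. Intron 2 held 209 peaks, intron 3 held 77 and later ones 85. Per megabase this came to 26.4 peaks in first introns, 14.6 in intron 2, 11.4 in intron 3 and 5.19 in later ones. Within an intron, read in the direction of transcription, 318 peaks (39.6%, 36.2 to 43.1) lay in the first of 3 equal parts. That part held 33.1% of the eligible sequence and 35.9% of the candidates that did not pass. The middle part held 248 and the last 237. Host introns were 195 to 126467 bp long with a median of 10987 bp, shorter than the median of 15703 bp over eligible positions.

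Position, intron and sequence were set in 1 logistic model of passing over all 13448 intronic candidates, with p-values adjusted by Benjamini-Hochberg over its 5 terms. Passing matched a signal above 73.23, so the model restates which candidates had high signal. The odds of passing were 9.55 times higher with GAGAGAG in the window (95% interval 8.03 to 11.4, adjusted p = 7.16e-143, n = 13448). They were 5.37 times higher for each 10 points of GC content (4.67 to 6.16, adjusted p = 1.05e-124, n = 13448) and 0.287 times as high for each 10-fold of distance (0.233 to 0.354, adjusted p = 2.01e-31). Median GC content was 49.3% at intronic peaks and 41.3% at candidates that did not pass. Beside these terms, being in a first intron had an odds ratio of 1.17 (0.99 to 1.39, adjusted p = 0.0753, n = 13448), while alone it had 1.74 (1.506 to 2.005, p = 4.03e-14). First intron peaks also lay nearer to start sites, with a median of 1386 bp against 2053 bp in second introns. Which of the other terms lowered the first intron odds ratio in the joint model was not tested. Intron length had an odds ratio of 1.16 for each 10-fold (adjusted p = 0.0753, n = 13448) in the joint model and of 0.908 alone. In the single lists the first intron term passed in list B (1.33) and not in list A (1.10), and intron length passed in both (1.18 in list A and 1.22 in list B).

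The 803 peaks fell on arms 2L (166), 2R (142), 3L (152), 3R (202), X (139) and 4 (2), with none on Y, where the pooled list had no intronic candidate. On the 5 large arms the share of candidates that passed was 5.29% to 6.54% and the density 13.6 to 19.4 peaks per megabase. On chromosome 4, 2 of 198 candidates passed, or 1.01% (0.12 to 3.60). On X, 59.0% of intronic peaks held GAGAGAG, the highest share among the large arms, where the lowest was 40.8% on 3L. The share of eligible windows with the motif was not measured by arm. Whether the arms differ in this beyond their sequence was not tested.

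Host genes numbered 450, of which 439 were protein-coding, and 787 of the 803 peaks lay in protein-coding hosts. The non-coding hosts included lncRNA:let7C, a precursor of the microRNA let-7, with 3 peaks of 95.8 or less. For 52 peaks the summit lay inside more than 1 gene, and the host was then the shortest protein-coding gene with an annotated intron there. Of the hosts, 291 held 1 intronic peak and 159 held 2 or more, and 21 hosts with 5 or more held 157 peaks. Of all 8149 protein-coding genes with eligible introns, 5.39% held an intronic peak. That share followed the amount of intron a gene has, from 0.313% of genes with up to 1 kb of eligible sequence to 27.2% of those with more than 30 kb. The density of peaks did not follow in the same way and was 9.92 peaks per megabase in the shortest group, 29.9 between 1 and 3 kb and 10.2 in the longest.

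The 10 hosts with the most peaks held 90 of the 803 (11.2%) at 183.2 peaks per megabase of eligible intron, against 14.9 overall. They were picked for their number of peaks, so a high density was built into the choice. Raf, InR, crp, EcR, shn and sbb tied at 7 peaks, and Raf and InR were kept for their summed signal, so that 14 hosts held 7 or more. Eip75B (FBgn0000568), a nuclear receptor induced early by ecdysone, held 12 peaks in 4 introns along a gene of 113.7 kb. Their signals ran from 82.70 to 428.1 with a median of 139.0, and 8 of the 12 held GAGAGAG. The strongest pair, 428.1 and 376.6, stood in intron 4, 91.5 and 92.1 kb from the 5′ end of the gene. The gene also had 6 promoter peaks, all at or below 173.8, so its strongest intronic peaks exceeded its promoter peaks.

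The gene tara, a transcriptional coregulator of the trithorax group, also held 12 peaks, but in a gene of 34.7 kb and all in its first intron. They were packed at a median spacing of 745 bp and formed a chain with signals of 83.50 to 261.9. Only 2 of the 12 held GAGAGAG, and the highest, 261.9, did not. Mnt, a bHLH repressor that opposes Myc, held 11 peaks in 29.9 kb, with signals of 81.83 to 310.1, 7 of them with GAGAGAG. Per megabase of eligible intron tara reached 409.6 peaks and Mnt 468.1, compared with 131.0 in Eip75B.

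Eip74EF held 8 peaks with a median signal of 290.8, the highest median among these 10 hosts. In order from the 5′ end they measured 154.7, 180.3, 814.4, 494.9, 104.5, 401.2, 92.53 and 503.0. All 8 were among the best regions of both single lists. In mam the signals were, in the same order, 144.0, 86.91, 167.8, 242.1, 346.1, 172.0, 368.5 and 762.7, and the last stood 33.6 kb into the gene. Raf held 7 peaks, from 80.41 to 616.2, and no promoter peak, the only one of the 14 hosts without. Its peak of 311.7 lay 633 bp from the nearest start site, not far beyond the limit of 500 bp.

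Tlk, a kinase of chromatin assembly, held 9 peaks, all in its second intron of 60007 bp, and tai held 8, of 75.60 to 277.2, in 3 introns. The gene ush, which encodes a cofactor of GATA factors, held 8, all in its first intron of 49060 bp and at most 176.1, beside a promoter peak of 743.7. InR, the insulin receptor, held 7, led by 372.8 and 333.0 in its first intron. Across the 803 peaks the nearest other intronic peak was a median of 5156 bp away and within 1000 bp for 197 of them (24.5%).

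**Figure D3:**
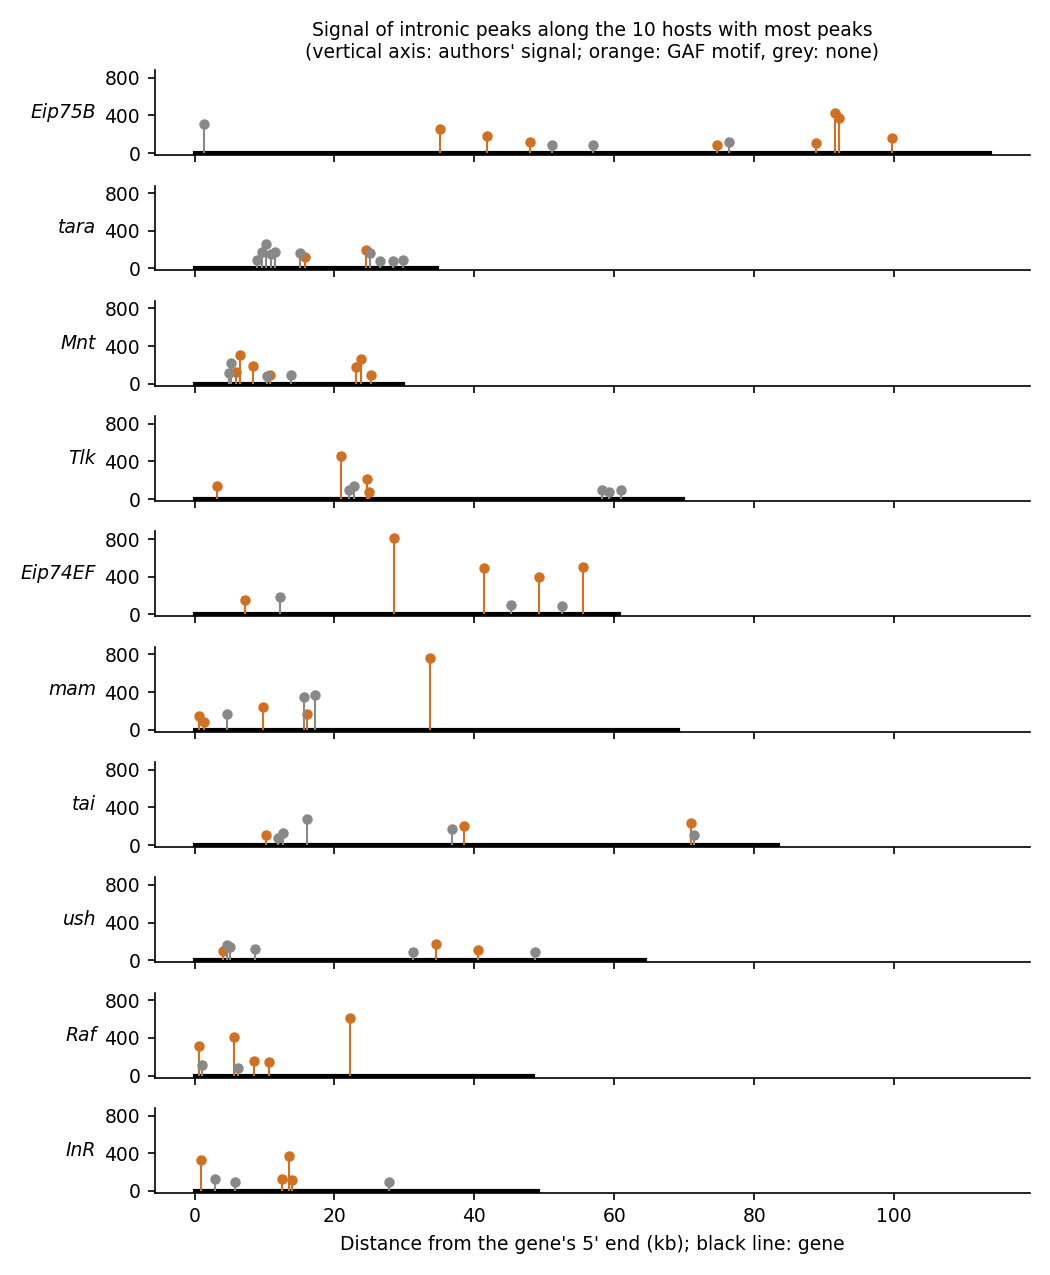
Signal of intronic peaks (vertical axis, authors' value, same scale in each panel) along the 10 host genes with the most of them, by distance from the 5′ end of the gene in kb. The black line is the gene, orange marks a GAF motif at the summit and grey none. Peaks of tara and Mnt are packed into genes of 34.7 and 29.9 kb, while the tallest, 814.4 in Eip74EF and 762.7 in mam, stand far from their neighbours.

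Genes with an intronic peak often had a promoter peak as well. A promoter peak was present in 256 of the 439 protein-coding hosts (58.3%, 53.5 to 63.0) and in 824 of the 7710 other genes with eligible introns (10.7%). Hosts were longer, with a median of 12.5 kb of eligible intron against 0.5 kb. In a logistic model with eligible intron length and number of start sites as covariates, the odds ratio was 4.04 (95% interval 3.22 to 5.07, p = 3.09e-33, n = 8149). This model was chosen after the data had been seen. Without the covariates it was 11.7 (9.54 to 14.3), so much of the raw association went with gene size and the number of start sites.

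The gene lists were read by 2 measures, the share of their genes with an intronic peak, against 5.39% of all, and peaks per megabase of eligible intron, against 14.96 over all protein-coding genes. They are descriptions, since genes of a list differ in length and the lists were chosen with earlier results known. The first measure rose with length over all protein-coding genes. It was 18.4% for genes with 10 to 30 kb of eligible intron and 27.2% for those with more than 30 kb. In the list of the ecdysone response, the steroid programme that ends larval life, 15 of 24 genes (62.5%) held an intronic peak, at 76.1 peaks per megabase. These genes had a median of 20.1 kb of eligible intron, against 0.6 kb over all protein-coding genes. The highest signals were 814.4 in Eip74EF, 428.1 in Eip75B, 285.0 in crol and 277.2 in tai. EcR, the receptor itself, held 7 peaks of up to 181.8 and br, a zinc-finger regulator of metamorphosis, 6 of up to 203.8.

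The list of receptor signalling had 14 of 34 genes with an intronic peak, at 59.6 peaks per megabase, led by mam, Raf, spi and InR. Signal in spi, which encodes a ligand of the EGF receptor, reached 412.9. BTB and chromatin factors had 12 of 30 at 64.6 per megabase, led by osa (525.7), kis (351.0), bab1 (298.3) and trx (285.1). The list of lipid, fat body and circadian genes had 5 of 20 at 70.9 per megabase, led by vri (303.6), a clock repressor, and bmm (156.1), a lipase, with cwo at 138.6 and Pdp1 at 108.2.

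In the list of the Toll pathway, to which Dorsal belongs, and the Imd pathway, the density was 56.9 per megabase. Of its 27 genes 4 held an intronic peak (14.8%, 4.19 to 33.7). These were cact, the inhibitor that holds Dorsal in the cytoplasm, with peaks of 260.1 and 213.7, and Dif, the Dorsal-related factor, with 177.5 and 170.5. Tab2 had 1 of 132.9, and Pli 2 of up to 99.8. Among targets of Dorsal along the dorsoventral axis of the embryo, 2 of 23 genes held one, Mef2 with 352.6 and ush with 8 of up to 176.1. The density was 23.8 per megabase, and 3.05 without ush.

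The Hippo and Fat list had 7 of 18 genes with an intronic peak, led by crb (229.1), scrib (174.1), sdt (115.5) and wts (114.9), and the density was 25.5 per megabase. The list of JNK and JAK-STAT signalling had 7 of 20 at 38.2, led by raw (366.9), kay (319.4), puc (304.3) and hep (102.3). Hox and segmentation genes had 6 of 24 at 19.1, led by Ubx (160.1), cad (119.5), abd-A (111.7) and inv (110.0). Genes of the cytoskeleton and muscle attachment had 6 of 30 at 19.3, led by Tm1 (265.1), Msp300 (212.6), shot (196.7) and mew (96.51). GATA factors and hemocyte genes had 3 of 22 at 35.9, and these were ush, zfh1 (103.7) and crq (73.84). Of the 10 peaks 8 were in ush, and without it the density was 8.75 per megabase.

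The 2 lists of neuronal genes had the most intron per gene, and they held the fewest peaks per megabase of the 13 lists. Genes of axon guidance and cell adhesion, with a median of 34.1 kb of eligible intron each, had an intronic peak in 3 of 46, at 1.22 peaks per megabase. The 3 were Sema1a (218.0), Dscam1 (142.6) and Ten-m (80.06). Ion channels and genes of neuronal excitability had one in 6 of 34, at 3.33 per megabase. Of these, KCNQ (253.6), a potassium channel, and para (130.9), a sodium channel, are channels, while mub (544.6), elav (167.7), pum and heph encode RNA-binding proteins. For comparison, protein-coding genes with more than 30 kb of eligible intron held 10.2 peaks per megabase as a whole.

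The motif GAGAGAG, on either strand, was present within 100 bp of the summit at 373 of 803 intronic peaks (46.5%, 42.96 to 49.97). In windows of equal length placed 1000 bp away from the same summits, on the side away from the nearest start site, it was present at 4.61%. The odds ratio of the paired comparison was 23.4 (95% interval 14.0 to 39.2, two-sided exact McNemar test, adjusted p = 2.70e-83 over 12 motifs). The motif was in 2.75% of all eligible intronic windows and at 5.39% of intronic candidates that did not pass. Exon peaks held it at 44.4% and intergenic peaks at 34.4%. Promoter peaks held it at 44.3%, and the odds ratio of intronic to promoter peaks was 1.09 (0.92 to 1.29, logistic model, adjusted p = 0.404, n = 2690). That comparison gave 1.24 (adjusted p = 0.0270, n = 2691) in list A alone and 0.99 in list B alone.

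The nearest match was a median of 14 bp from the summit, within 25 bp for 66.0% of the 373 peaks and within 50 bp for 89.8%. In bins of 50 bp, 28.5% and 23.3% of intronic peaks held a match in the bins on either side of the summit, against 1.78% of intronic candidates that did not pass. Of intronic candidates with the motif 35.4% passed the threshold, and of those without it 3.47%.

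**Figure D4:**
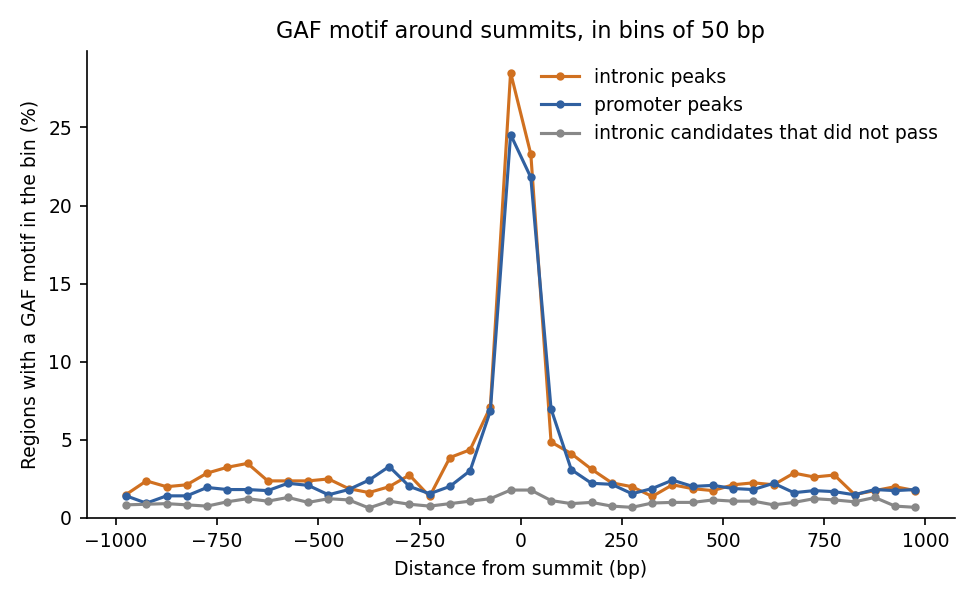
Percent of regions with a GAF motif (vertical axis) in bins of 50 bp by distance from the summit in bp (horizontal axis), for intronic peaks, promoter peaks and intronic candidates that did not pass. The intronic and promoter curves rise together to 28.5% and 24.6% beside the summit, while candidates that did not pass reach 1.78%.

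Signal was higher where the motif was present, also at intergenic peaks (medians of 121.5 with it and 95.6 without) and exon peaks (133.2 and 99.2). Intronic peaks with GAGAGAG had a median signal of 144.0 (n = 373) and those without 97.5 (n = 430), and the log2 difference was 0.52 (95% interval 0.42 to 0.62, p = 8.24e-26). Promoter peaks showed 0.35 (0.27 to 0.44), and the difference between the 2 classes, tested as an interaction, was 0.17 (0.04 to 0.30, p = 0.0104, n = 2690). This model was added after the data had been seen. The median rose with the number of matches, from 97.5 with none to 121.9 with 1, 152.3 with 2 to 5 and 168.6 with 6 or more. In 4 equal groups by signal, from the strongest to the weakest, the motif was present at 69.7%, 51.2%, 41.3% and 23.5% of intronic peaks.

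The other motif with a large difference was the CA repeat, CACACAC, at 26.2% of intronic summits and 9.59% of flanks (odds ratio 3.29, 2.455 to 4.42, exact McNemar test, adjusted p = 5.63e-17). It was in 7.28% of eligible windows and more frequent at intronic than at promoter peaks, where it was at 19.3% (odds ratio 1.48, adjusted p = 0.00175, n = 2690). The difference from promoter peaks was lost with list B alone (1.12, adjusted p = 0.438, n = 2689) and in a window of 50 bp on each side (1.34, adjusted p = 0.0965). Runs of A, AAAAAAA, were rarer at summits (13.3%) than in flanks (20.5%), with an odds ratio of 0.577 (exact McNemar test, adjusted p = 3.85e-04), and stood in 19.6% of eligible windows. With list A alone the odds ratio was 0.939 (exact McNemar test, adjusted p = 0.906), and with 250 bp on each side it turned to 1.21 and did not pass.

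The dl motif was found at 19 intronic summits (2.37%, 1.43 to 3.67) and at 12 flanks (1.49%), an odds ratio of 1.58 (0.77 to 3.26, exact McNemar test, adjusted p = 0.337). It was in 1.31% of eligible intronic windows, at 1.57% of intronic candidates that did not pass and at 1.21% of promoter peaks. The odds ratio of intronic to promoter peaks was 1.98 (1.04 to 3.80, adjusted p = 0.108, n = 2690). The 19 peaks had a median signal of 95.1, and 4 of them also held GAGAGAG. Their highest signals were 178.2 in Eip75B, 177.4 in B4, 175.7 in Tret1-1, 163.1 in CG9674 and 125.4 in pdgy, against 889.2 for the strongest intronic peak. A motif match is a stretch of letters and says nothing of what was bound there.

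Of the remaining motifs, CACGTG (E-box) was at 4.61% of summits and 2.24% of flanks, and the GATA motif AGATAAG at 1.49% and 3.49%. Both passed the test, each with an adjusted p of 0.0398, and both missed it under each of the 6 alternatives tried. TTCNNNGAA (Stat92E), TGANTCA (AP-1), CAGGTAG (Zelda), CGCGCGC, GGTCACAC (M1BP) and TATCGATA (DREF) did not pass in these windows, and were in 6.28%, 4.36%, 0.911%, 0.474%, 0.305% and 0.455% of eligible windows. Some passed under an alternative, namely DREF (0.0435) and M1BP (0.10) with the other flank, Stat92E (0.633) with 250 bp and Zelda (3.60) with list B alone. TATCGATA was at 0 of 803 intronic summits, with an exact 95% upper limit of 0.458%, and at 1.41% of promoter peaks. For this motif the model of intronic against promoter peaks could not be fitted, so that difference was not tested. Matches of different motifs were counted separately, also where they overlapped.

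**Figure D5:**
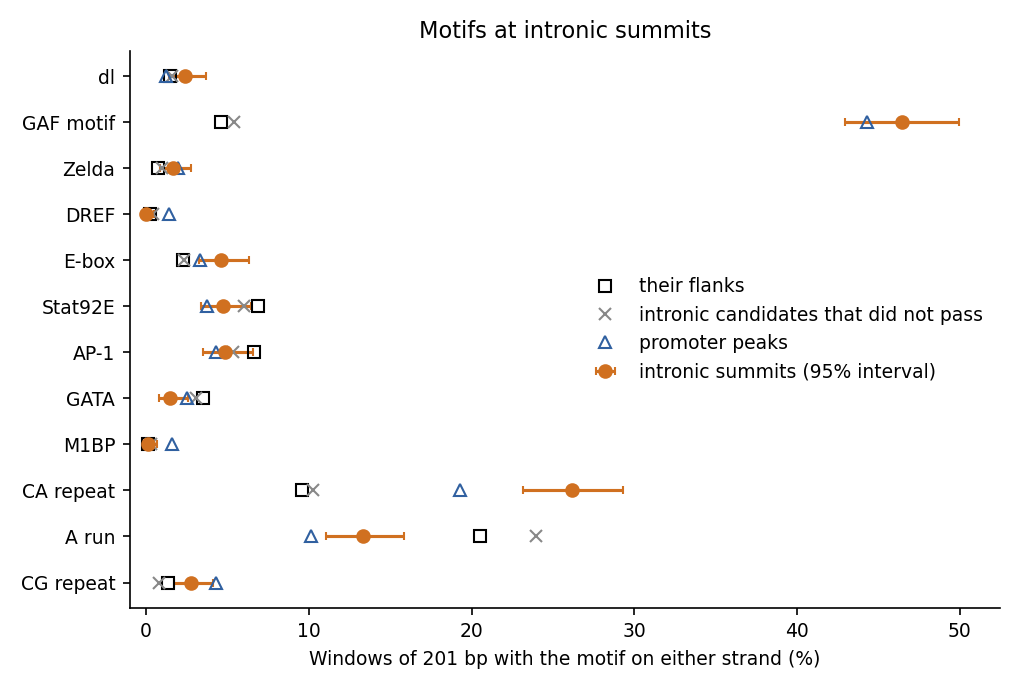
Percent of 201 bp windows that hold each of 12 motifs on either strand (horizontal axis), at intronic summits with exact 95% intervals (orange), at their flanks (squares), at intronic candidates that did not pass (crosses) and at promoter peaks (triangles). The GAF motif stands at 46.5% of intronic summits and the CA repeat at 26.2%, far from their flanks, while the dl motif at 2.37% lies close to its flanks at 1.49%.

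Agreement between the 2 single lists was measured as a summit falling in 1 of the 2718 best regions of a list. By this measure 465 intronic peaks (57.9%, 54.4 to 61.35) were in both lists, 150 in list A only, 130 in list B only and 58 in neither. The share in both was 60.5% for promoter peaks and 50.2% for intergenic peaks. Agreement followed signal, and in the same 4 groups of intronic peaks it was 96.0%, 84.6%, 43.8% and 7.00%, so few of the weakest peaks ranked high in each list on its own. The pooled signal is made from the same reads as the single lists, so part of this relation is built in. With log2 signal in the logistic model, intronic peaks were in both lists more often than promoter peaks (odds ratio 1.31, 1.03 to 1.67, p = 0.0303, n = 2690), and with class alone less often (0.898, p = 0.228). Across the 731 intronic peaks with a candidate in each list, the signals of list A and list B had a Spearman rho of 0.58, given as a description because both share a control and a genome.

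The share in both lists was higher for peaks with the motif, which also had the higher signal. Of intronic peaks with no GAGAGAG match 46.0% were among the best of both lists, compared with 71.9% of those with 1 match, 72.1% with 2 to 5 and 69.7% with 6 or more. Of the 19 peaks with the dl motif 7 were in both. Soft-masked bases, which mark repeats in the assembly, made up 18.7% of the windows of intronic peaks on average and 22.9% of all eligible intronic windows.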

How the data were processed

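ChIP-seq of dl-GFP was carried out on whole larvae, 2 replicates of 1 group. The authors deposited region lists in dm6, and their signal value per region, an enrichment over control per the deposited description files, was not normalised between lists. The thresholded list is the part of a pooled candidate list kept by IDR. The IDR threshold, aligner, caller and versions were not given in the sources used here. The dm3 lists were not used. Read depth is unknown.

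From these files, summits were classed with Ensembl release 115 (BDGP 6.54), start sites and exons of all transcripts counted. An intron was numbered in the longest host transcript with an intron at the summit. Eligible sequence was sampled every 100 bp, and every 1000 bp for motifs, searched on both strands in 201 bp windows. Linear models had HC3 robust intervals, and logistic models, exact McNemar tests and Clopper-Pearson intervals were two-sided at 95%, with Benjamini-Hochberg adjustment and a threshold of 0.05 (Python 3.11.15, pandas 2.3.3, SciPy 1.17.1, statsmodels 0.14.6). The statistics were tested on simulated data with independent regions. Intronic peaks often shared a host or lay near each other, which neither the simulation nor the fits took into account. Of the 408 listed symbols 22 were not found. The tests count regions or genes and not larvae, so p-values describe these lists.

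Named are the hosts of the 20 strongest peaks, the 10 hosts with most peaks, up to 4 genes per list, the 5 strongest peaks with the dl motif, and the extremes of distance and intron length. Other genes were named after their values were seen. The members, lists and motifs were chosen with earlier results of these data known. Alternatives were other limits, windows, flanks, covariates, a stricter threshold and each single list.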

Additional observations from a re-analysis of the deposited data

How the results depend on the processing

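The number of intronic peaks stayed within 1.5 times of 803 under each alternative, from 570 with a limit of 1000 bp to 941 with one of 250 bp. The odds ratios of passing for GAGAGAG, GC content and distance kept their direction and passed the test under each alternative run, and so did GAGAGAG at summits against flanks, with odds ratios of 8.51 to 40.1. No paired analysis was possible because there was 1 group and no list could be linked to a replicate number.

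In the single lists, signal against promoter peaks was -0.21 (list A) and -0.063 (list B), and against intergenic peaks 0.094 and 0.16, with 0.053 at or above the median signal. The first intron term passed with a limit of 1000 bp (1.23), a threshold at the median signal (1.30) alone (1.74) and in list B (1.33), but not in list A (1.10). Intron length turned below 1 at the median threshold (0.882) and alone (0.908), and passed in lists A (1.18) and B (1.22). Agreement between lists turned from 1.31 to 0.898 with class only. By the transcript with the shortest intron 59.3% of peaks were in first introns.

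The number of motifs that differed from flanks was 5, and 3 with windows of 50 or 250 bp or above the median signal, 5 with the other flank, where DREF (0.0435) and M1BP (0.10) passed and E-box and GATA did not, and 2 and 4 in lists A and B. Against promoter peaks it was 1, and 6 with 250 bp, with 7 and 0 in the single lists. The first of these counts leaves out DREF, which could not be fitted since no intronic summit held it. The dl motif at summits gave 0.833 above the median signal, and against promoter peaks 1.77 (n = 2690, adjusted p = 0.0480) with 250 bp. Reversals elsewhere were of comparisons that did not pass under that alternative. Against flanks they were DREF with 250 bp (1.17), AP-1 with the other flank (1.15) and the A run with 250 bp (1.21). Against promoter peaks they were Zelda (1.02) and GATA (1.02) with 250 bp, Stat92E with 50 bp (0.927), and, with 1 list alone, GAGAGAG (0.994 in B, 1.24 in A), Zelda (1.09 in B, 0.976 in A) and Stat92E (0.914 in A).

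Of protein-coding genes 3.07% held an intronic peak at or above the median signal. At that threshold the share was 8.33% in the Hox list, 11.1% in the Hippo and Fat list and 15% in the JNK and JAK-STAT list. The models of promoter peaks and of signal by GAGAGAG, their alternatives and the densities of gene lists without their leading gene were chosen after seeing the data. Signal by GAGAGAG kept its direction and passed, with 0.52 given GC content and 0.52 and 0.47 in the single lists. The causes of these shifts were not tested. Depth is unknown, and in the weakest of the 4 groups by signal 7.00% of intronic peaks were among the best of both lists.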
